A study of Rattus norvegicus with 12 samples.

Results

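The genes of the proteasome, its activators and its assembly factors were taken from RNA sequencing of rat 1464R cells as every row whose symbol begins with Psm, 1 letter from a to g, and a number. The rule found 50 of 32883 rows. They comprise 7 alpha and 7 constitutive beta subunits of the 20S core, 3 immunoproteasome subunits, the thymus subunit Psmb11, 6 ATPases and 11 other subunits of the 19S particle, 5 activators or inhibitors, 7 assembly factors and 3 further symbols that the rule takes in by spelling. The 3 further symbols are Psmc3ip, Psme3ip1 and Psma3l, the last named for its likeness to an alpha subunit and counted outside that class. Of the 50 members, 48 passed the filter on low counts. Psmb11 held 6 counts over all 12 libraries. Psma8, the testis form of an alpha subunit, had 0 counts in each Control and Eda library, 1, 1 and 0 counts in the TDP-43 + EA libraries and 20, 1 and 5 in the TDP-43 + EA + Eda libraries, and was not tested.

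The 26S proteasome degrades proteins that carry ubiquitin chains. Its barrel, the 20S core, has outer rings of alpha subunits that gate the pore and inner rings of beta subunits, of which Psmb5, Psmb6 and Psmb7 cut peptide bonds. The 19S cap recognises, deubiquitinates, unfolds and feeds in the substrate; its Psmc subunits are ATPases and its Psmd subunits are receptors, scaffolds and the deubiquitinase Psmd14. Psmb8, Psmb9 and Psmb10 replace the cutting subunits in the immunoproteasome, which interferons induce and which makes peptides for antigen presentation. Psmg factors and Pomp build the core, and Psmd5, Psmd9 and Psmd10 help to build the base of the cap. When proteasome capacity falls short, the transcription factor Nfe2l1 is known to raise the subunit genes together, and Nfe2l2, which oxidative and electrophilic stress activates, acts on part of them through antioxidant response elements. Aggregates of TDP-43 and impaired protein degradation are features of amyotrophic lateral sclerosis, for which the radical scavenger edaravone is given.

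The cells descend from an immortalized line of adult rat neural stem cells and were differentiated for 4 days in all groups before the medium was changed for the last 48 h. Each of the 4 groups had 3 libraries. Control cells received neither virus nor drug. Eda cells received edaravone (50 µmol/L) for 48 h. TDP-43 + EA cells were infected with adenovirus expressing human TDP-43 and received ethacrynic acid (20 µmol/L), an electrophile that depletes glutathione, for the last 24 h; the labels name the virus of the C-terminal fragment, whereas the study's methods describe it together with the virus of the tagged full-length protein. TDP-43 + EA + Eda cells received the virus and edaravone at the change of medium and ethacrynic acid for the last 24 h, so that edaravone was present before ethacrynic acid. None of the 12 libraries had the virus or ethacrynic acid alone (the study's groups of that kind were not analysed here). No empty virus is described for Control. The effects of infection, of TDP-43 and of ethacrynic acid therefore cannot be told apart in these libraries. From its own such groups the study reported little difference in expression between TDP-43 cells and control cells. Its supplement counts far more differentially expressed genes for ethacrynic acid alone. The replicates are described as coming from separate experiments, and the labels do not say which libraries share an experiment. The main fits treated the libraries as unpaired, and counts with a replicate block are given at the end.

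Total counts ran from 17418137 to 43905611 per library, with TDP-43 + EA + Eda replicate 1 the deepest. Differences were tested across 13230 genes with edgeR, whose TMM factors lay between 0.829 and 0.860 in TDP-43 + EA + Eda and between 1.02 and 1.10 elsewhere. Genes rose or fell where the adjusted p was at most 0.05, and those with a log2 fold change of 1 or more in size are called differentially expressed (DEGs). Scaling by total counts in place of TMM lowered the median log2 fold change of all genes from -0.02 to -0.30 in TDP-43 + EA + Eda relative to TDP-43 + EA, and from -0.08 to -0.39 relative to Control, so that counts in these comparisons are given with both, and the total count value of a gene described with edaravone is added where it changes the call relative to TDP-43 + EA. The labels call the cells motor neuron-like, yet they were rich in oligodendrocyte lineage RNA. The 13 markers of that lineage, in TPM (transcripts per 1000000, which allows for transcript length), summed to between 32286 and 40516 in Control and between 15137 and 19266 in TDP-43 + EA. Relative to Control 12 of the 13 fell in TDP-43 + EA, against 18.7% of all genes. The 10 neuron markers summed to 417 to 493 and 239.7 to 366 TPM in the same groups, with Stmn2 at 0 in every library. Of the 7 neuron markers tested, 2 rose and 3 fell, where 19.6% and 18.7% of all genes did. Fewer cells of a type and less RNA per cell cannot be told apart in such bulk samples, and the part of this shift in the values below was not tested.

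Most constitutive proteasome genes were abundant in Control cells. On the TPM scale, which is per transcript length and so allows levels to be set between genes, Psmb3 was highest with a mean of 581 TPM and Psma7 next with 508. The 19S ATPases ranged from 73.8 TPM for Psmc6 to 313 for Psmc1, and the other 19S subunits from 133 for Psmd14 to 242 for Psmd2. Immunoproteasome subunits were scarce, at 4.28 TPM for Psmb8, 14.01 for Psmb9 and 46.6 for Psmb10. Among the activators Psme4 had the lowest level with 25.6 TPM. Counts of 8 members were not whole in at least 1 library, which marks reads shared between genes (Psmd12, Psmb3, Psme1 and Psme3 in 12 libraries, Psmb6 and Psma3l in 11, Psmb8 in 10 and Psma4 in 5). Values of these members are uncertain to that extent.

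Promoter sequences are given as a description, since many members moved together; their part in the results was not tested. RefSeq sequences on GRCr8, from 250 bases before to 50 after each gene's start, were matched to 44 of the 50 members. The core of the antioxidant response element, written TGACNNNGC and searched on both strands, was present in 7 of the 44 (15.9%) and in 12.1% of all 33469 promoters of that length. Each match is given for the members that hold it, read on the strand where it occurs and in capitals throughout.
Psmd1, upstream: TGACCTCGC
Psmd1, downstream: TGACTGAGC
Psmd3: TGACCGAGC
Psmb2: TGACCGGGC
Psmb5: TGACGTCGC
Psmb6: TGACGGAGC
Psme4: TGACCCAGC
Psmd9, farther from the start: TGACCCGGC
Psmd9, nearer to the start: TGACCTCGC
Of the 7, 4 (Psmd1, Psmd3, Psmd9 and Psme4) rose in TDP-43 + EA, against 20 of the 36 tested members whose promoter had no match. The heat shock element core GAANNTTC, which reads the same on both strands, was present in 3 of the 44 members (Psmc3, Psmd1 and Psmb9; 6.82%) and in 8.59% of all promoters; it does not overlap the other matches. A match is a description of letters and not a bound site.

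The promoters of 4 members are printed because their transcripts took different courses. Psmd1, a scaffold of the cap, rose in TDP-43 + EA and, by TMM but not by total counts, with edaravone added. Psmd5 had the largest rise when both treatments were compared with Control. Psmb5, the chymotrypsin-like cutting subunit, did not pass in TDP-43 + EA. It fell with edaravone, a call that passed in 8 of the 12 fits that left out 1 library. Psmg3, an assembly factor of the alpha ring, fell in TDP-43 + EA and again with edaravone added. Capitals mark matches to the antioxidant response element core and, in Psmd1, also the heat shock element core farthest from the start.
Psmd1 (chr9:94157721-94158020, plus strand): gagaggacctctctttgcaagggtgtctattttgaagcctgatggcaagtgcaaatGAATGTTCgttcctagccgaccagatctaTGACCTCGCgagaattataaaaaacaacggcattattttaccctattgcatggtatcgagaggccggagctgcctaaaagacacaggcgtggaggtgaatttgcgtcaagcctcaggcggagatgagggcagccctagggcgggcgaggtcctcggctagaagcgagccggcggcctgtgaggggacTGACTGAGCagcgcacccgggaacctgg
Psmd5 (chr3:38548441-38548740, minus strand): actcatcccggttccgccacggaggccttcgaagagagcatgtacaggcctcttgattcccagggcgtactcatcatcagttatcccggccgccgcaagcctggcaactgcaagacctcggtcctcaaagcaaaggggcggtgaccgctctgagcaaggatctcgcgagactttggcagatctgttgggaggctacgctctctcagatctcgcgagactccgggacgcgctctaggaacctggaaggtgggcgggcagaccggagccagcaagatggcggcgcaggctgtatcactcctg
Psmb5 (chr15:32047330-32047629, minus strand): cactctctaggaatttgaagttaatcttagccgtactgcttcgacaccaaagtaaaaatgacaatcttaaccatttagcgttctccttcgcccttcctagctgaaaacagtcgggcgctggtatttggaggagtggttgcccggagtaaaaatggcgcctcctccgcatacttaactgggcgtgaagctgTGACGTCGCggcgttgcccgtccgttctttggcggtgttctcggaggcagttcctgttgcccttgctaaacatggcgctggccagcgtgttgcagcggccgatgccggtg
Psmg3 (chr12:19923038-19923337, plus strand): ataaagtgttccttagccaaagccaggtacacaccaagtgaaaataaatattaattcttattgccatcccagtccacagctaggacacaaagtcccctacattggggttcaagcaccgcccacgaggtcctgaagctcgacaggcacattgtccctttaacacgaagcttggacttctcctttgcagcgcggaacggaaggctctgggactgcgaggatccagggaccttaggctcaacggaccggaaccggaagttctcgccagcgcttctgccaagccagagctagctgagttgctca
The window of Psmd1 holds the antioxidant response element core at -165 to -157 and at 23 to 31, counted from 1 at the start with no position 0, and that of Psmb5 holds it at -60 to -52. The windows of Psmd5 and Psmg3 hold neither motif.

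In TDP-43 + EA cells, transcripts of the proteasome were higher than in Control cells. Of 48 members, 28 rose, 2 fell and 18 did not pass, while 19.6% of all genes rose and 18.7% fell. The 48 include the 3 members named by spelling, of which 2 rose and 1 fell. The median log2 fold change of the members was 0.27 and that of all genes 0.00, with a member range of -0.61 to 0.90. No member was a DEG; 7.49% of all genes were DEGs with a higher level. Log2 fold changes from here to the edaravone comparison are those of TDP-43 + EA against Control, ± their standard error. Of the 28, 22 rose under each of 5 other scalings or tools, and 21 also in each of the 12 fits that left out 1 library.

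In the cap, most non-ATPase subunits rose. Of the 11 non-ATPase subunits 10 rose, with a class median of 0.30, and of the 6 ATPases 3 rose, with a median of 0.22. By log2(TPM + 1) 6 non-ATPase subunits rose and 1 fell. The calls of Psmd6, Psmd7 and Psmd8 passed in 8, 9 and 6 of the 12 fits that left out a library. Psmd1, the scaffold Rpn2, had 299.6, 279.6 and 282 CPM in Control, 265, 252 and 266 in Eda, 478, 462 and 438 in TDP-43 + EA and 654, 597 and 569.5 in TDP-43 + EA + Eda (CPM, counts per 1000000 scaled by TMM). The 3 TDP-43 + EA libraries were above all Control and Eda libraries, with a log2 fold change of 0.68 ± 0.08, adjusted p = 7.56e-06 (edgeR). Psmd4, the ubiquitin receptor Rpn10, had 152, 136 and 152 CPM in Control, 154, 139 and 139 in Eda, 216, 216 and 195 in TDP-43 + EA and 306, 325 and 267 in TDP-43 + EA + Eda. Its TDP-43 + EA libraries also stood clear of Control (0.51 ± 0.09, adjusted p = 3.81e-04). Psmd14, the deubiquitinase Rpn11, had 126, 121 and 117 CPM in Control, 106, 117 and 113 in Eda, 143, 144 and 142 in TDP-43 + EA and 192, 202 and 183 in TDP-43 + EA + Eda. The difference was small but without overlap (0.24 ± 0.07, adjusted p = 0.0168), and it did not pass under 2 of the 5 other scalings or tools or without Control replicate 3. Psmd13 alone among the non-ATPase subunits did not pass, with 209, 205 and 188 CPM in Control, 197, 194 and 186 in Eda, 195, 180.4 and 172 in TDP-43 + EA and 198, 209 and 183 in TDP-43 + EA + Eda (-0.14 ± 0.08, adjusted p = 0.198).

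Among the ATPases, Psmc6 changed most. It had 96.4, 103 and 92.2 CPM in Control, 93.4, 100.2 and 100.2 in Eda, 143, 143 and 135 in TDP-43 + EA and 209, 201 and 159.9 in TDP-43 + EA + Eda. Every TDP-43 + EA library was above every Control library (0.53 ± 0.10, adjusted p = 5.23e-04). Psmc3 had the lowest fold change of its class, with 245, 257 and 247 CPM in Control, 238, 238 and 240.5 in Eda, 264, 256 and 249 in TDP-43 + EA and 230.3, 261 and 222 in TDP-43 + EA + Eda. The Control and TDP-43 + EA ranges overlapped (0.04 ± 0.07, adjusted p = 0.723). Psmc1 and Psmc2 rose (0.26 and 0.32), and Psmc4 and Psmc5 did not pass (0.18 and 0.14).

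In the core, 4 of 6 tested alpha subunits and 3 of 7 beta subunits rose. The call of the beta subunit Psmb4 (0.25, adjusted p = 0.0388, edgeR) passed under 3 of the 5 other scalings or tools and in 4 of the 12 fits that left out a library. Psma5, an alpha ring subunit, had 141, 130.0 and 135 CPM in Control, 119, 132 and 121 in Eda, 254, 214 and 218 in TDP-43 + EA and 282, 259 and 251 in TDP-43 + EA + Eda. The Control and TDP-43 + EA libraries were well apart (0.75 ± 0.09, adjusted p = 8.72e-06). Psma1 and Psma6 followed with log2 fold changes of 0.62 and 0.44. Psma7, the most abundant alpha subunit, had 232, 233 and 232 CPM in Control, 206, 223 and 218 in Eda, 234, 251 and 221 in TDP-43 + EA and 239, 263 and 216 in TDP-43 + EA + Eda, with Control and TDP-43 + EA overlapping (0.02 ± 0.08, adjusted p = 0.903). Psma3l, an entry named for its likeness to the remaining alpha subunit, for which the rule found no row of its own, had 141, 134 and 125 CPM in Control, 124, 130.5 and 133 in Eda, 250.3, 276 and 222 in TDP-43 + EA and 327, 378 and 323 in TDP-43 + EA + Eda. It had the largest log2 fold change of all members (0.90 ± 0.09, adjusted p = 3.84e-06), with counts that are partly shared with other genes.

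Of the beta subunits, Psmb3, a structural one, had the largest change. It had 209, 235 and 223 CPM in Control, 204, 206 and 211 in Eda, 378, 427 and 359 in TDP-43 + EA and 388, 502 and 417 in TDP-43 + EA + Eda. All TDP-43 + EA values were above all Control values (0.80 ± 0.10, adjusted p = 1.77e-05). The 3 cutting subunits were not among those that rose. Psmb5 had 148, 143 and 171 CPM in Control and 184, 165 and 180.2 in TDP-43 + EA (0.19 ± 0.11, adjusted p = 0.176). Psmb6, the caspase-like subunit, had 114, 112 and 107 CPM in Control against 119.9, 124 and 119 in TDP-43 + EA (0.13 ± 0.10, adjusted p = 0.347). Psmb7, the trypsin-like subunit, had 150.0, 143 and 137 CPM in Control against 165, 156 and 148 (0.13 ± 0.09, adjusted p = 0.284). Differences between these subunits and those that rose were not tested.

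**Figure D1:**
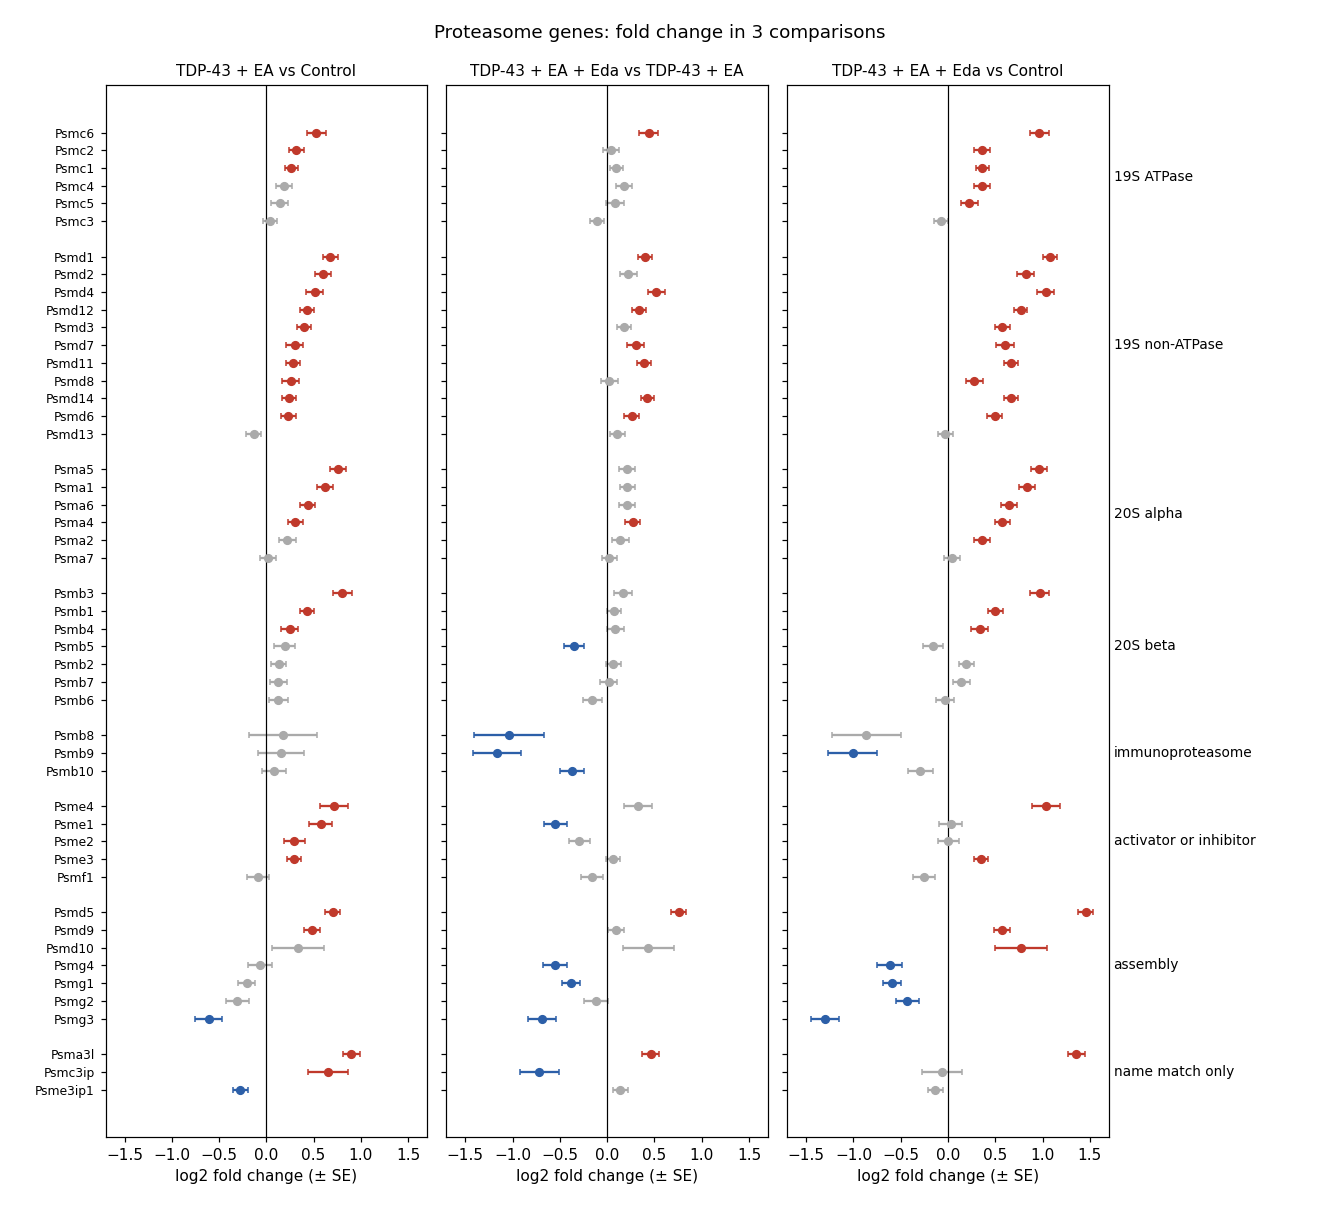
Log2 fold changes of the 48 tested members (points), 3 of them named by spelling, with their standard errors (bars) from edgeR in 3 comparisons. Members are ordered by class and by the first comparison, and red and blue mark an adjusted p of at most 0.05. Against Control 28 rose and 2 fell in TDP-43 + EA (left), and on the addition of edaravone (middle) 11 rose and 9 fell.

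Of the 5 activators and inhibitors 4 rose, with a class median of 0.30. Psme4, a large nuclear activator also called PA200, had 102, 128 and 115 CPM in Control, 87.6, 107 and 91.8 in Eda, 185, 203 and 177 in TDP-43 + EA and 185, 303 and 219.7 in TDP-43 + EA + Eda. TDP-43 + EA exceeded Control in all libraries (0.71 ± 0.15, adjusted p = 0.00154). Psme1 and Psme2 form the interferon-inducible PA28 cap and lie 6609 bases apart on chromosome 15 of Rnor_6.0 (chr15:34256071-34258947 and chr15:34265557-34269851). Psme1 had 40.4, 48.1 and 42.1 CPM in Control, 43.01, 55.01 and 45.8 in Eda, 65.6, 63.1 and 66.1 in TDP-43 + EA and 41.05, 51.9 and 40.3 in TDP-43 + EA + Eda. It rose in TDP-43 + EA (0.58 ± 0.12, adjusted p = 0.00171), without overlap. Psme2 had 46.6, 51.3 and 49.2 CPM in Control, 44.2, 51.7 and 49.6 in Eda, 55.9, 63.7 and 61.05 in TDP-43 + EA and 50.2, 55.3 and 41.6 in TDP-43 + EA + Eda. Its rise (0.30 ± 0.11, adjusted p = 0.0467) did not pass under 2 of the 5 other scalings and passed in 4 of the 12 fits that left out a library, those without TDP-43 + EA replicate 1 or 1 of the TDP-43 + EA + Eda replicates. Psme3, the nuclear PA28 gamma, had 151, 141 and 157 CPM in Control, 133, 147 and 141 in Eda, 174, 193 and 183 in TDP-43 + EA and 191, 191 and 189 in TDP-43 + EA + Eda (0.29 ± 0.07, adjusted p = 0.00636). Psmf1, an inhibitor of the core in vitro also called PI31, had 69.3, 66.4 and 67.7 CPM in Control, 72.95, 72.4 and 74.4 in Eda, 59.99, 69.5 and 61.7 in TDP-43 + EA and 49.1, 69.9 and 52.1 in TDP-43 + EA + Eda (-0.09 ± 0.12, adjusted p = 0.582).

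The assembly factors did not move as 1 group. The factors of the base Psmd5 and Psmd9 rose, whereas of the alpha ring factors Psmg1 to Psmg4 none rose and Psmg3 fell. Psmd5 had 117, 115 and 132 CPM in Control, 118, 125 and 118 in Eda, 198, 209.9 and 184 in TDP-43 + EA and 319, 357 and 323 in TDP-43 + EA + Eda. Every TDP-43 + EA library was above every Control and Eda library (0.70 ± 0.08, adjusted p = 1.21e-05). Psmd9 had 61.1, 61.4 and 59.1 CPM in Control, 52.3, 56.6 and 55.7 in Eda, 84.5, 88.3 and 80.2 in TDP-43 + EA and 84.9, 98.2 and 86.6 in TDP-43 + EA + Eda (0.48 ± 0.08, adjusted p = 4.04e-04). Psmd10, known as gankyrin, was scarce with 2.503, 2.46 and 1.76 CPM in Control, 2.705, 2.41 and 2.84 in Eda, 3.06, 3.03 and 2.42 in TDP-43 + EA and 4.097, 4.14 and 3.26 in TDP-43 + EA + Eda (0.34 ± 0.28, adjusted p = 0.367). Psmg3 had 44.4, 33.4 and 36.9 CPM in Control, 41.9, 41.5 and 36.4 in Eda, 30.1, 22.2 and 22.97 in TDP-43 + EA and 16.00, 14.4 and 16.2 in TDP-43 + EA + Eda. The TDP-43 + EA libraries lay below all Control libraries (-0.61 ± 0.14, adjusted p = 0.00349). Its partner Psmg4 had 28.5, 27.1 and 22.9 CPM in Control, 30.2, 29.4 and 26.6 in Eda, 26.7, 22.6 and 25.5 in TDP-43 + EA and 18.04, 17.5 and 15.5 in TDP-43 + EA + Eda, with overlap between Control and TDP-43 + EA (-0.07 ± 0.13, adjusted p = 0.701). Psmg1 and Psmg2 form the other chaperone pair of the ring. Psmg1 had 59.8, 59.6 and 62.8 CPM in Control, 60.4, 60.8 and 56.1 in Eda, 48.97, 55.9 and 52.7 in TDP-43 + EA and 41.5, 36.2 and 42.7 in TDP-43 + EA + Eda (-0.21 ± 0.09, adjusted p = 0.0896). Psmg2 had 45.1, 43.2 and 38.3 CPM in Control, 45.9, 37.4 and 40.7 in Eda, 33.7, 36.04 and 32.7 in TDP-43 + EA and 33.2, 34.8 and 25.97 in TDP-43 + EA + Eda (-0.31 ± 0.13, adjusted p = 0.0673). Both were lower in each TDP-43 + EA library than in each Control library without passing the test, and both were called lower when scaled by total counts or as TPM.

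**Figure D2:**
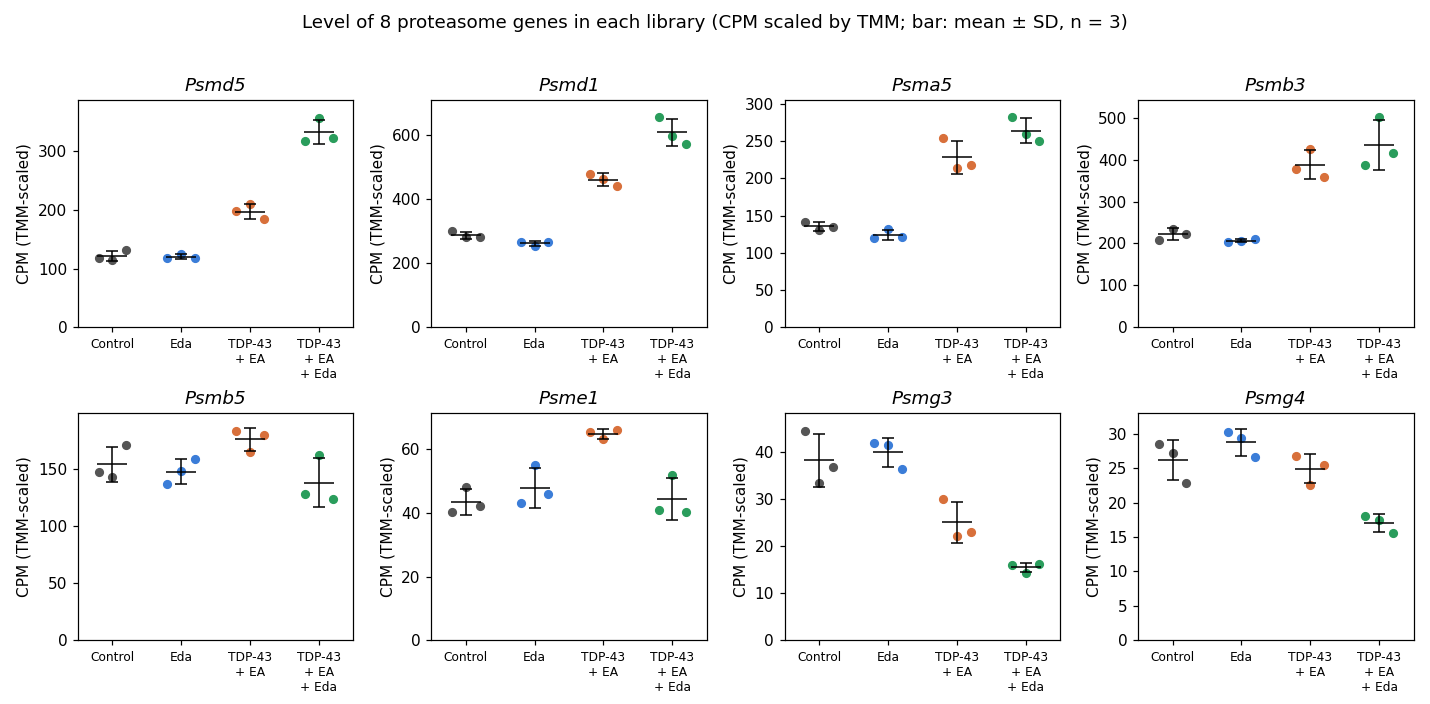
Levels of 8 proteasome genes in CPM scaled by TMM in each library (points, 3 per group) with the mean and SD (bars). Psmd5 and Psmd1 are higher in TDP-43 + EA than in Control and highest in TDP-43 + EA + Eda, Psma5 and Psmb3 are higher in both groups that received TDP-43 and ethacrynic acid, Psme1 is highest in TDP-43 + EA, and Psmg3 is lower in both groups that received TDP-43 and ethacrynic acid.

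Psmc3ip and Psme3ip1 share the spelling of subunits and are not parts of the particle. Psmc3ip, a meiotic recombination factor, had 4.64, 5.97 and 5.52 CPM in Control, 5.07, 5.68 and 5.02 in Eda, 7.42, 9.396 and 8.53 in TDP-43 + EA and 4.43, 6.28 and 4.803 in TDP-43 + EA + Eda. It rose in TDP-43 + EA (0.65 ± 0.21, adjusted p = 0.0222), a call lost without Control replicates 1 or 3 or TDP-43 + EA replicates 2 or 3. Psme3ip1, a binding partner of Psme3, had 89.3, 86.1 and 89.1 CPM in Control, 88.2, 83.9 and 95.7 in Eda, 69.8, 78.7 and 70.3 in TDP-43 + EA and 78.5, 79.6 and 82.9 in TDP-43 + EA + Eda. It fell (-0.27 ± 0.08, adjusted p = 0.0149) and every TDP-43 + EA library was below every Control library, with the call lost without TDP-43 + EA replicates 1 or 3.

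TDP-43 + EA + Eda was compared with TDP-43 + EA to ask what edaravone, given from before ethacrynic acid, changes in such cells. The study reports that ethacrynic acid lowered the viability of TDP-43 cells and that edaravone reduced this loss. The part of cell survival in the values below was not tested. Of the 48 members, 11 rose and 9 fell in TDP-43 + EA + Eda relative to TDP-43 + EA, while 15.4% of all genes rose and 15.0% fell. Among the 3 named by spelling 1 rose and 1 fell. The median of the members was 0.09 and that of all genes -0.02. The direction of the set depended on the scaling, as did that of all genes. By total counts 2 rose and 19 fell, by TPM 2 rose and 21 fell, and by DESeq2 19 rose and 8 fell. Among all genes, 816 rose and 4520 fell by total counts, 880 and 4217 by TPM and 2557 and 1924 by DESeq2. Under every scaling, Psmd4 and Psmd5 rose, and Psmb5, Psme1, Psmg1, Psmg3, Psmg4, Psmb9 and Psmc3ip fell.

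**Figure D3:**
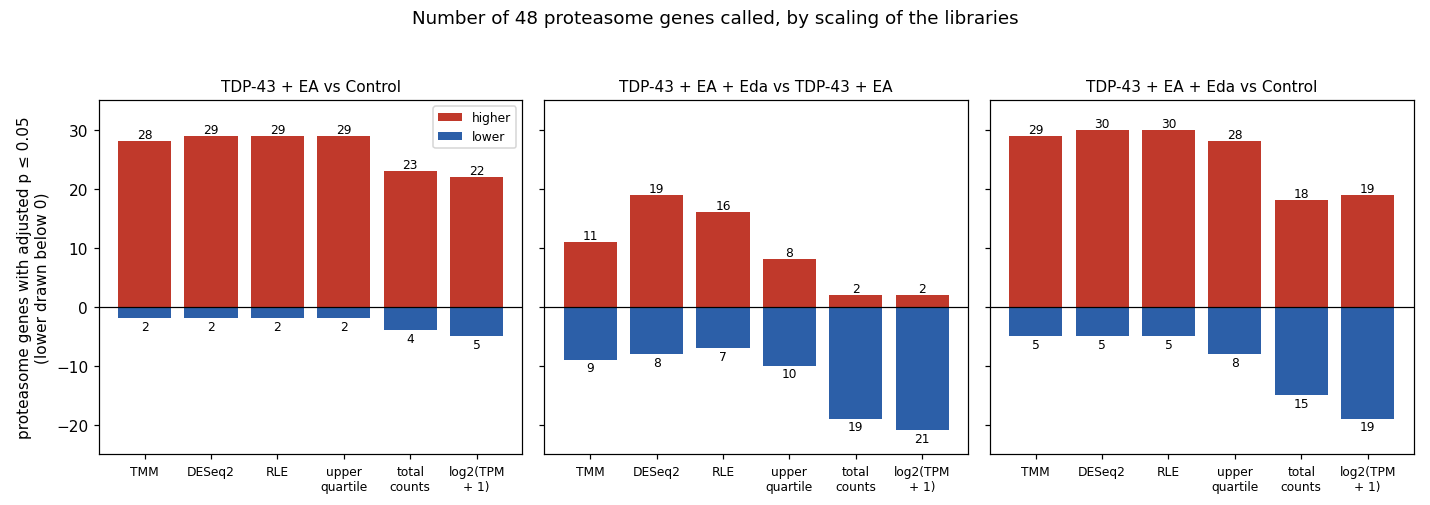
Number of the 48 tested members, 3 of them named by spelling, that were higher (red, above 0) or lower (blue, below 0) in 3 comparisons. Calls have an adjusted p of at most 0.05 and are drawn by the scaling of the libraries or the tool. In TDP-43 + EA against Control 22 to 29 were higher under every scaling, whereas on the addition of edaravone the split ran from 19 higher and 8 lower with DESeq2 to 2 higher and 21 lower with TPM. All genes, not drawn, split 2557 and 1924 with DESeq2 and 880 and 4217 with TPM on that addition.

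The subunits that rose with edaravone were mostly non-ATPase subunits of the cap. Of these 7 of 11 rose with TMM (Psmd1, Psmd4, Psmd6, Psmd7, Psmd11, Psmd12 and Psmd14), with a class median of 0.30, and the class median was 0.03 with total counts, by which Psmd4 alone of the 7 passed. Psmd4 exceeded TDP-43 + EA in each library (0.52 ± 0.09, adjusted p = 6.07e-04), and by total counts its log2 fold change was 0.24 (adjusted p = 0.0384). Psmd14 was also higher in each library (0.43 ± 0.07, adjusted p = 5.87e-04), yet its value by total counts was 0.15 (adjusted p = 0.138). Psmd1 was similar, with 0.40 ± 0.08, adjusted p = 0.00115 by TMM and 0.12 by total counts (adjusted p = 0.191). Psmc6, the 1 ATPase that rose, had 0.44 ± 0.10, adjusted p = 0.00321 by TMM and 0.16 by total counts. Psma4, the 1 alpha subunit that rose (0.27 ± 0.08, adjusted p = 0.01799; not without TDP-43 + EA replicate 3 or TDP-43 + EA + Eda replicate 1), had -0.01 by total counts. Psma3l rose by 0.46 (adjusted p = 0.00192) and had 0.18 by total counts.

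Of the constitutive beta subunits, none rose and Psmb5 fell. Psmb5 had 148, 143 and 171 CPM in Control, 137, 149 and 159 in Eda, 184, 165 and 180.2 in TDP-43 + EA and 128, 163 and 124 in TDP-43 + EA + Eda. The TDP-43 + EA + Eda libraries lay below every TDP-43 + EA library (-0.35 ± 0.11, adjusted p = 0.0238), and the call was lost in 4 of the 12 fits that left out a library, those without TDP-43 + EA replicates 1 or 3 or without TDP-43 + EA + Eda replicates 1 or 3. Psmb6 had 114, 112 and 107 CPM in Control, 103, 113 and 109 in Eda, 119.9, 124 and 119 in TDP-43 + EA and 94.1, 129 and 103 in TDP-43 + EA + Eda (-0.16 ± 0.10, adjusted p = 0.256). Psmb7 had 150.0, 143 and 137 CPM in Control, 128, 133 and 127 in Eda, 165, 156 and 148 in TDP-43 + EA and 143, 181 and 151 in TDP-43 + EA + Eda (0.01 ± 0.09, adjusted p = 0.924). The test was not passed for either of these by TMM, and by total counts both were lower, Psmb6 by a log2 fold change of -0.43 (adjusted p = 0.005299) and Psmb7 (-0.26, adjusted p = 0.0424). The median of all genes by total counts was -0.30, so Psmb7 fell by less than that median.

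Of the PA28 cap, Psme1 fell and Psme2 did not pass by TMM. Psme1 fell in TDP-43 + EA + Eda relative to TDP-43 + EA (-0.55 ± 0.12, adjusted p = 0.00354), with every library below, and relative to Control its log2 fold change was 0.03 ± 0.12, adjusted p = 0.868 by TMM, where by TPM it was lower than Control (-0.33, adjusted p = 0.0213). Psme2 had -0.30 ± 0.11, adjusted p = 0.0566 against TDP-43 + EA by TMM, with every library lower, and -0.57 (adjusted p = 0.00119) by total counts. Its TDP-43 + EA + Eda libraries overlapped Control in CPM and were below it in TPM (50.05, 55.7 and 42.99 against 59.9, 67.7 and 63.6 TPM). Psme3 (0.06 ± 0.07, adjusted p = 0.605), Psme4 (0.32 ± 0.15, adjusted p = 0.111) and Psmf1 (-0.16 ± 0.12, adjusted p = 0.315) did not pass by TMM, and by total counts Psme3 (-0.22, adjusted p = 0.0271) and Psmf1 (-0.44, adjusted p = 0.00974) fell. By total counts all genes had a median of -0.30, and Psme3 fell by less than that.

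Of the 7 assembly factors 1 rose and 3 fell with edaravone. Psmd5 rose once more, with 0.75 ± 0.08, adjusted p = 2.36e-05, the smallest adjusted p of the members, and with 0.48 by total counts (adjusted p = 4.73e-04). Psmg3 fell further (-0.69 ± 0.15, adjusted p = 0.00257), and Psmg4 (-0.55 ± 0.13, adjusted p = 0.00488) and Psmg1 (-0.39 ± 0.09, adjusted p = 0.00638) fell too. In all 3 genes the TDP-43 + EA + Eda libraries lay below every TDP-43 + EA library. Psmg2 (-0.12 ± 0.13, adjusted p = 0.505), Psmd9 (0.09 ± 0.08, adjusted p = 0.448) and Psmd10 (0.44 ± 0.27, adjusted p = 0.253) did not pass by TMM, and by total counts Psmg2 fell (-0.40, adjusted p = 0.0207). Psmc3ip fell by 0.72 on the log2 scale (adjusted p = 0.0184), and its values again overlapped Control. That call was lost without TDP-43 + EA replicate 2 or TDP-43 + EA + Eda replicates 1 or 3.

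Of the 48 members, Psmb9 and Psmb8 had the largest falls with edaravone. All 3 immunoproteasome subunits fell by TMM, and Psmb8 and Psmb9 were the only 2 members that were DEGs, against 3.95% of all genes that were DEGs with a lower level. Psmb9 and Psmb8 lie 11767 bases apart on chromosome 20 (chr20:3973420-3978845 and chr20:3990613-3993769, Rnor_6.0), in the major histocompatibility region. Psmb9 had 6.61, 6.72 and 5.66 CPM in Control, 5.82, 6.696 and 6.903 in Eda, 8.05, 5.44 and 7.64 in TDP-43 + EA and 4.26, 2.74 and 2.25 in TDP-43 + EA + Eda. The TDP-43 + EA + Eda libraries were below all others (-1.16 ± 0.26, adjusted p = 0.00346), and the call held in each fit that left out a library. Psmb8 had 2.91, 2.25 and 2.78 CPM in Control, 2.18, 2.96 and 2.097 in Eda, 2.88, 3.03 and 3.08 in TDP-43 + EA and 2.09, 1.47 and 0.712 in TDP-43 + EA + Eda, which rests on 76.3, 22 and 11.7 counts in TDP-43 + EA + Eda and 63.5, 58.8 and 66.1 in TDP-43 + EA. Replicate 1 of the treated group, the deepest library, lay closer to the others than replicates 2 and 3 did. The fall of Psmb8 (-1.04 ± 0.37, adjusted p = 0.0453) passed in 1 of the 12 fits that left out a library, the one without TDP-43 + EA + Eda replicate 1. Psmb10 had 23.4, 24.6 and 24.04 CPM in Control, 25.4, 27.5 and 28.7 in Eda, 23.97, 24.9 and 27.2 in TDP-43 + EA and 17.6, 17.8 and 23.5 in TDP-43 + EA + Eda. The treated libraries were again below TDP-43 + EA (-0.37 ± 0.13, adjusted p = 0.0433), and this call too passed in 1 of the 12 fits, the one without TDP-43 + EA + Eda replicate 3. With DESeq2 the adjusted p of Psmb10 was 0.0602. In TDP-43 + EA against Control none of the 3 passed (0.18, 0.16 and 0.08 for Psmb8, Psmb9 and Psmb10); 0 had an unadjusted p under 0.05, and DESeq2 called 0.

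Ratios of an immunoproteasome subunit to the constitutive subunit it replaces do not depend on the scaling of a library. Psmb9 amounted to 3.88, 4.03 and 3.500% of the TPM of Psmb6 in Control and 3.796, 3.99 and 4.22% in Eda. It was 4.55, 2.94 and 4.26% in TDP-43 + EA. With edaravone added it was 3.05, 1.43 and 1.46%. The lowest values belong to treated replicates 2 and 3, and treated replicate 1 overlapped TDP-43 + EA. The mean log2 ratio was -5.75 ± 0.62 (SD, n = 3) with edaravone and -4.70 ± 0.34 without, a difference of -1.05 (exact two-sided permutation test, p = 0.20). Psmb8 amounted to 1.35, 1.08 and 1.09% of Psmb5 in Control and 1.09, 1.43 and 0.9497% in Eda. It was 1.15, 1.25 and 1.15% in TDP-43 + EA and, with edaravone added, 1.14, 0.661 and 0.351%. The log2 ratio differed by -0.88, with treated replicate 1 just under the lowest TDP-43 + EA value (exact permutation test, p = 0.10, the smallest that 3 against 3 libraries allow). Psmb10 amounted to 13.7, 15.03 and 15.1% of Psmb7 in Control, 17.5, 18.3 and 19.7% in Eda, 12.9, 14.1 and 16.02% in TDP-43 + EA and 11.1, 8.804 and 13.99% in TDP-43 + EA + Eda. Its ratio was higher in each Eda library than in each Control library (0.34 on the log2 scale, exact permutation test, p = 0.10). None of the 12 tests of 3 ratios in 4 pairs of groups passed, with Benjamini-Hochberg adjusted values of 0.40 to 1.0, and the design could not have reached 0.05.

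**Figure D4:**
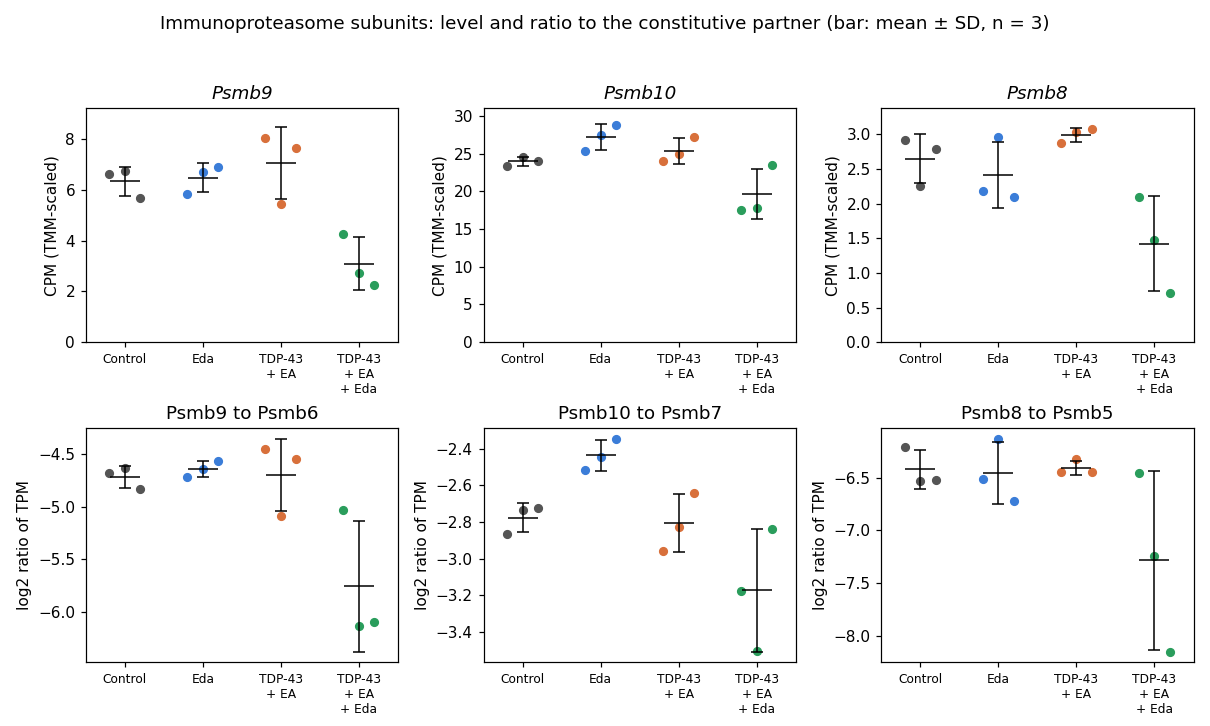
Immunoproteasome subunits in each library (points, 3 per group, with mean and SD): CPM scaled by TMM (top) and the log2 ratio of TPM to the constitutive subunit that each replaces (bottom). The TDP-43 + EA + Eda libraries are the lowest in CPM for Psmb9 and Psmb8, and their ratios spread most between replicates.

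Against Control, TDP-43 + EA + Eda cells differed by all 3 agents together. This comparison shares its libraries with the other 2 and is no separate evidence. Of the 48 members 29 rose and 5 fell by TMM, with 27.1% of all genes higher and 30.4% lower. By total counts 18 members rose and 15 fell, while among all genes 2325 rose and 5965 fell. DEGs with a higher level were 5 of the members (12.6% of all genes) and DEGs with a lower level 2 (11.2%). The higher ones were Psmd5 (1.45 ± 0.08, adjusted p = 2.71e-09), Psma3l (1.36 ± 0.09, adjusted p = 1.96e-08), Psmd1 (1.08 ± 0.08, adjusted p = 2.26e-08), Psme4 (1.04 ± 0.15, adjusted p = 3.04e-05) and Psmd4 (1.03 ± 0.09, adjusted p = 2.08e-07). By total counts Psmd1, Psme4 and Psmd4 had 0.76, 0.72 and 0.71, under the fold of a DEG, and by log2(TPM + 1) Psmd5 alone of the 5 reached it (1.08; Psma3l had 0.996). The lower ones were Psmg3 (-1.30 ± 0.15, adjusted p = 2.70e-06) and Psmb9 (-1.01 ± 0.26, adjusted p = 0.00357). Psmg1 (-0.60), Psmg2 (-0.43) and Psmg4 (-0.62) fell as well. All 4 Psmg factors and Psmb9 did so under each scaling and in each fit that left out a library. Of the 29 that rose, 18 did so under each scaling, 9 of them non-ATPase subunits or ATPases of the cap.

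Within the family, the balance between classes can be read without a scaling factor, as the share of each class in the summed TPM of the members other than the 3 named by spelling. The non-ATPase cap subunits took 22.7 ± 0.16% in Control, 22.6 ± 0.33% in Eda, 23.4 ± 0.20% in TDP-43 + EA and 26.2 ± 0.51% in TDP-43 + EA + Eda (mean ± SD, n = 3). The ATPases of the same cap took 15.1 ± 0.20%, 15.3 ± 0.50%, 14.2 ± 0.12% and 13.9 ± 0.12% in that order. The assembly factors went from 6.69 ± 0.27% in Control to 5.52 ± 0.06% and 5.21 ± 0.19%, and the immunoproteasome subunits from 0.725 ± 0.016% to 0.630 ± 0.062% and 0.399 ± 0.066%. Activators and the inhibitor held 3.83 ± 0.09% in Control, 3.87 ± 0.15% in TDP-43 + EA and 3.15 ± 0.17% in TDP-43 + EA + Eda. The beta subunits of the core held 30.3 ± 0.08% in TDP-43 + EA and 28.3 ± 1.39% with edaravone added. The alpha subunits held 22.2 ± 0.30% and 22.8 ± 0.93%. In summed TPM the non-ATPase cap subunits had means of 2414 and 2471 in these groups. All classes together had 10312 and 9434, and the beta subunits 3120 and 2674. The immunoproteasome subunits summed to a mean of 64.9 TPM in both Control and TDP-43 + EA. Shares of 1 total are not independent of each other and were not tested.

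**Figure D5:**
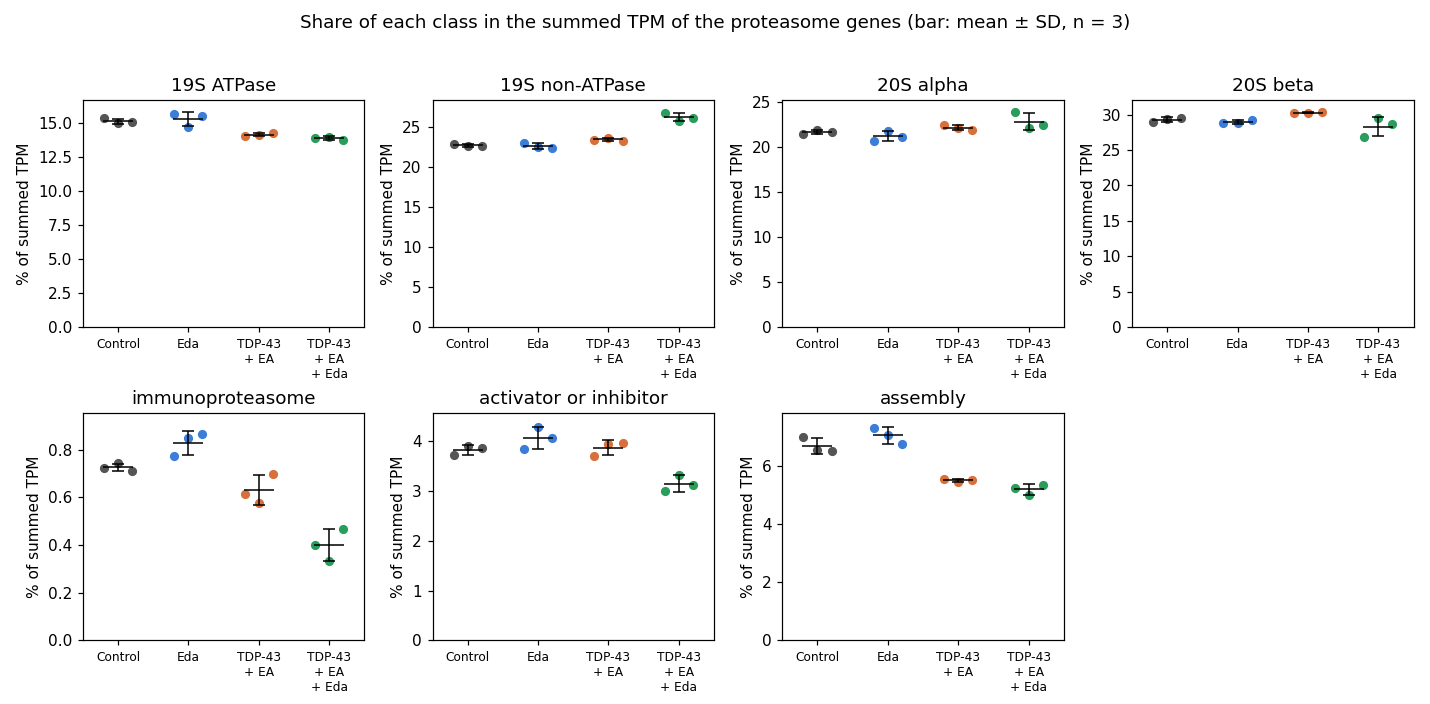
Share of each class (percent) in the summed TPM of the proteasome genes in each library (points, 3 per group, with mean and SD). The non-ATPase subunits of the 19S cap take 25.7 to 26.8% in TDP-43 + EA + Eda and at most 23.6% elsewhere, and the assembly factors and the immunoproteasome subunits take less in TDP-43 + EA + Eda than in Control.

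Edaravone without TDP-43 and ethacrynic acid was compared with Control to see its effect on unstressed cells. No member passed in edgeR (0 rose and 0 fell of 48, with 0.0% of all genes in either direction). An unadjusted p under 0.05 was reached by 0 members, and DESeq2 and limma called 0. Log2 fold changes of the members ran from -0.27 to 0.24, with a median of -0.05. The effect of edaravone in stressed cells minus that in unstressed cells was tested as an interaction; 10 members were higher and 4 lower, against 8.42% and 7.04% of all genes. By total counts 1 was higher and 11 lower, and by log2(TPM + 1) 1 and 13. Among all genes 377 were higher and 2927 lower by total counts, and 414 and 2779 by log2(TPM + 1).

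Genes that work with the proteasome but lie outside the name rule were followed in a list of 20, of which 19 were found and tested. In TDP-43 + EA, 9 of them rose and 2 fell, where 19.6% and 18.7% of all genes did. With edaravone added 8 rose and 1 fell by TMM, against 15.4% and 15.0% of all genes. By total counts 6 rose and 5 fell with edaravone, while among all genes 816 rose and 4520 fell. Txnl1, a thioredoxin bound to the cap, had 109.5, 96.9 and 109 CPM in Control, 105, 107 and 102 in Eda, 212, 216 and 187 in TDP-43 + EA and 335, 332 and 303 in TDP-43 + EA + Eda. It rose in TDP-43 + EA (0.96 ± 0.08, adjusted p = 5.79e-07) and again with edaravone (0.66 ± 0.08, adjusted p = 6.15e-05), with no overlap in either comparison. Usp14, a deubiquitinase of the cap, rose in both (0.73 ± 0.10 and 0.78 ± 0.10), as did Akirin2, which carries proteasomes into the nucleus (0.61 ± 0.10 and 0.82 ± 0.10), and Zfand5, a zinc finger activator of the particle (0.51 ± 0.09 and 0.79 ± 0.09). By total counts these 4 also rose with edaravone, by 0.38, 0.50, 0.54 and 0.52. Nfe2l1, the transcription factor of the subunit genes, had 33.2, 33.3 and 30.9 CPM in Control, 34.00, 27.3 and 33.3 in Eda, 31.2, 40.5 and 39.6 in TDP-43 + EA and 45.1, 46.6 and 43.8 in TDP-43 + EA + Eda. Its own transcript did not pass in TDP-43 + EA against Control or with edaravone added (0.19 ± 0.12, adjusted p = 0.239 and 0.28 ± 0.12, adjusted p = 0.0901). In CPM each TDP-43 + EA + Eda library was nonetheless above each Control library. Ngly1, the glycanase that processes Nfe2l1, fell in TDP-43 + EA (-0.78 ± 0.13, adjusted p = 2.46e-04).

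A list of 20 antigen processing and interferon genes, to which the immunoproteasome belongs by function, was read beside it. Of 17 tested, 7 rose and 1 fell in TDP-43 + EA, and 1 rose and 2 fell with edaravone (0 and 8 by total counts). The shares of all genes by TMM were 19.6% and 18.7%, and with edaravone 15.4% and 15.0%. By total counts 816 of all genes rose and 4520 fell with edaravone. B2m, the light chain of class I molecules, had 179, 167 and 159 CPM in Control, 186, 193 and 172 in Eda, 318, 337 and 301 in TDP-43 + EA and 402, 434 and 385 in TDP-43 + EA + Eda and rose in TDP-43 + EA (0.92 ± 0.08, adjusted p = 7.76e-07). With edaravone it rose by TMM (0.35 ± 0.08, adjusted p = 0.00416) and did not pass by total counts (0.08, adjusted p = 0.515). Irf1, a transcription factor that can induce Psmb8, Psmb9 and Psmb10, rose in TDP-43 + EA (1.91 ± 0.19, adjusted p = 2.86e-06) and had 0.09 ± 0.18 with edaravone. Tapbp, which loads class I molecules, rose by 0.60 and then fell by 0.58 on the log2 scale (adjusted p = 0.00254 and 0.00465). Mx2, an antiviral GTPase, fell in TDP-43 + EA (-1.58 ± 0.23, adjusted p = 7.39e-05). Rsad2, another antiviral gene, held 13, 0 and 21 counts in Control, 17, 0 and 6 in TDP-43 + EA and 0 in each TDP-43 + EA + Eda library; with edaravone it did not pass by TMM and was lower by total counts (adjusted p = 0.03504). The 11 microglia and macrophage markers, a cell type rich in immunoproteasomes, summed to between 1.97 and 6.14 TPM in Control, between 5.50 and 9.09 in TDP-43 + EA and between 8.28 and 14.2 with edaravone added, with 4 of the 11 at 0 in all libraries. The 8 astrocyte markers summed to between 465 and 570.3 TPM in Control, between 396 and 503 in TDP-43 + EA and between 197 and 322 with edaravone added. Of their 4 tested genes, 2 (Gfap, -1.39 ± 0.24, adjusted p = 7.23e-04, and Aldoc, -0.64 ± 0.10, adjusted p = 3.83e-04) fell with edaravone. The part of these cells in the result was not tested.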

How the data were processed

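The 12 libraries come from full-length cDNA. Per gene, the authors deposited expected counts, which are estimated and not normalized, from the DRAGEN platform on the rat assembly Rnor_6.0; the submitters' processing notes also name bcl2fastq 2.20, R 3.6.0 and DESeq2 1.26.0. TPM, also deposited, adjust for transcript length, and the authors' values add up to about 1000000 in each library. How strand and shared reads were handled is not given in the sources used here. The library kit amplifies little RNA by PCR without molecular identifiers, so counts carry amplification error beside counting error.

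Expected counts were rounded and fitted over all 12 libraries with edgeR 4.0.16 in R 4.3.3 (default filter, TMM, robust quasi-likelihood test, Benjamini-Hochberg adjustment over 13230 genes per comparison). CPM are scaled by TMM. TPM ratios were compared by exact two-sided permutation tests of 20 regroupings in Python 3.11.15 with scipy 1.17.1; plots used matplotlib 3.10.9. The scripts were tested on simulated data. Alternatives were DESeq2 1.42.0, other scaling factors, no filter, a replicate block, 2 groups only, limma 3.58.1 on log2(TPM + 1) or log2(TPM + 0.1) with and without a minimum of 1 TPM in 3 libraries, and leaving out each library. The 5 scalings and tools counted together are DESeq2, RLE, upper quartile, total counts and log2(TPM + 1).

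Members and lists were chosen with earlier results of these data known. Named in full were the 4 members with the smallest adjusted p in TDP-43 + EA against Control, with edaravone added and in both treatments against Control, the cutting subunits and their immunoproteasome forms, activators, assembly factors, the highest and lowest of each class in TDP-43 + EA, and members that passed against their class median; of each list outside the rule, the 4 smallest adjusted p in TDP-43 + EA and with edaravone, with Nfe2l1 and B2m; 1 gene of the second list is not reported here. Others named were chosen after their values were seen. Chi-square per gene between libraries of a group was 10.9 to 65.6, so none was a near copy. The promoters of Psmd6, Psmd12, Psmd14, Psma7, Psma3l and Psmb11 were not analysed here.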

Additional observations from a re-analysis of the deposited data

Results flagged for a closer look

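For 14 members the effect of edaravone differed between cells with TDP-43 and ethacrynic acid and cells without, by the interaction term of the edgeR fit at an adjusted p of at most 0.05. The term is the log2 fold change by edaravone in stressed cells minus that in unstressed cells. It was positive for 10 members. The assembly factor Psmd5 had 0.77 ± 0.12, adjusted p = 9.86e-04, the cap subunits Psmd4 0.54 ± 0.13, adjusted p = 0.0104, Psmd14 0.54 ± 0.10, adjusted p = 0.00351 and Psmd1 0.54 ± 0.11, adjusted p = 0.00428. Psma3l had 0.51, Psmc6 0.43, Psmd11 0.42, Psmd7 0.41, Psmd12 0.41 and Psma4 0.36.

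It was negative for Psmb9 (-1.19 ± 0.36, adjusted p = 0.0348), Psmg3 (-0.75 ± 0.20, adjusted p = 0.0213), Psme1 (-0.69 ± 0.17, adjusted p = 0.0154) and Psmg4 (-0.68 ± 0.18, adjusted p = 0.0193). These 4 passed under each of 5 other scalings or tools, and of the 10 positive ones Psmd5 did. By total counts 1 member was positive and 11 negative, against 377 and 2927 of all genes. Of the 4, the call of Psme1 held in each fit that left out a library, that of Psmg4 in each but the fit without Control replicate 3, that of Psmg3 in 8 of 12 (not without Control replicate 2, Eda replicates 1 or 2 or TDP-43 + EA replicate 1) and that of Psmb9 in 3 (without Eda replicate 1, TDP-43 + EA replicate 2 or TDP-43 + EA + Eda replicate 1). Of the 10, 5 held in each such fit.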

How the results depend on the processing

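Scaling decided the split of the members in TDP-43 + EA + Eda, whose TMM factors were the lowest. All genes shifted as well. By total counts 816 of all genes rose and 4520 fell against TDP-43 + EA, 2325 and 5965 against Control, and 377 and 2927 for the interaction. Against TDP-43 + EA (11 rose, 9 fell) the counts were 19 and 8 with DESeq2, 2 and 19 by total counts, 2 and 21 with log2(TPM + 1) and with log2(TPM + 0.1), 3 and 19 without the TPM minimum, and 8 and 5 with only 2 groups fitted. Against Control (29 and 5) they were 28 and 8 with upper quartile factors, 18 and 15 by total counts, 19 and 19 with either pseudocount and 19 and 18 without the minimum. For the interaction (10 and 4) they were 18 and 5 with DESeq2, 1 and 11 by total counts, 1 and 13 with log2(TPM + 1), 1 and 12 with log2(TPM + 0.1) and 2 and 11 without the minimum. In TDP-43 + EA against Control (28 and 2) they were 23 and 4 by total counts and 22 and 5 with log2(TPM + 1), and 5 fell in the other TPM fits. Eda against Control gave 0 in all settings. Named values that reversed against TDP-43 + EA were Psma4 (-0.010 by total counts), Psmb7 (-0.26 by total counts and -0.25 in each TPM fit) and Psme3 (-0.22 by total counts and -0.20 in each TPM fit); against Control Psme1 had -0.33, -0.34 and -0.33 with log2(TPM + 1), log2(TPM + 0.1) and without the TPM minimum, and Psme3 had -0.0071 in the TPM fits with 1 added and -0.0072 with 0.1 added. By construction total counts and TPM hold no composition factor. Leaving out 1 library gave 21 to 29 higher and 1 to 3 lower members in TDP-43 + EA (1 lower without TDP-43 + EA replicates 1 or 3), 8 to 13 and 6 to 10 with edaravone added, 26 to 30 and 5 to 7 in TDP-43 + EA + Eda against Control, and 6 to 11 and 2 to 5 for the interaction (6 without Control replicate 1; 2 without Control replicates 2 or 3, Eda replicate 2 or TDP-43 + EA replicate 1). The log2 ratio difference with edaravone added ranged from -1.41 to -0.87, -1.29 to -0.44 and -0.53 to -0.20 for Psmb9, Psmb8 and Psmb10. Psmb8 rests on at most 76.4 counts per library. No label pairs libraries by replicate number. Correlations of same-numbered deviations were low (0.02 to 0.13), yet in each of the 18 same-numbered pairs the best match had the same number. Same-numbered libraries may share an experiment, which the main fits do not use. With the replicate block 16 rose and 10 fell with edaravone added, 30 and 7 in TDP-43 + EA + Eda against Control, and 13 and 5 for the interaction, and the paired difference of Psmb9 to Psmb6 was -1.05 (exact sign-flip test, p = 0.25, the smallest possible).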
